A study of Rattus norvegicus with 16 samples.

Results

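Interleukin-1 (IL-1) signalling genes and the inflammasome genes that control the release of their products were examined in cultured rat microglia, macrophages that reside in the brain. The 6 genes were chosen by identifier and carry the names given with that choice: Il1b (ENSRNOG00000004649), Il1a (ENSRNOG00000004575), Il1rn (ENSRNOG00000005871), Il18 (ENSRNOG00000009848), Casp1 (ENSRNOG00000007372) and Nlrp3 (ENSRNOG00000003170). They are 6 of the 30560 genes listed, and all 6 are among the 11902 with enough counts to be tested. The gene table used here (RefSeq, assembly GRCr8) pairs none of its genes with an Ensembl identifier, so the names could not be looked up and are carried over as given. For the same reason the labelled cell type could not be checked against its marker genes.

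Primary wild-type microglia at day 12 in vitro were sampled in 4 groups of 4 libraries. LPS+ApoA-I cells received lipopolysaccharide (LPS) at 100 ng/ml for 20 hours together with apolipoprotein A-I (ApoA-I) protein at 100 ug/ml in the medium. LPS cells received LPS alone, ApoA-I cells received ApoA-I alone, and Control cells received neither. LPS, a bacterial outer-membrane component, is sensed through Toll-like receptors, and ApoA-I is the principal protein of high-density lipoprotein. Whether replicates came from separate animals or cultures is not in the labels, so the spread behind each p-value may be technical. In bulk RNA, fewer cells of a type and less RNA per cell cannot be told apart.

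IL-1β and IL-1α both signal through the type 1 IL-1 receptor, and the receptor antagonist encoded by Il1rn binds that receptor without activating it. IL-1β and IL-18 are made as precursors that caspase-1 cleaves into their active forms. Caspase-1 is itself activated on the inflammasome, a protein assembly for which NLRP3 is a sensor, and in macrophages the transcription of Il1b and Nlrp3 is a priming step that precedes this assembly. Transcript levels measure the priming side of this system and not cleavage or release.

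The 2 IL-1 ligand genes lie near each other on chromosome 3 of the RefSeq assembly GRCr8, Il1a at 136979804 to 136990236 and Il1b at 137030200 to 137036581. Il1rn lies elsewhere on that chromosome, at 27509836 to 27525738. Il18 and Casp1 are on chromosome 8 and Nlrp3 is on chromosome 10. A window of 250 bases before to 50 bases after an annotated start was available for all 6 genes by symbol. A single start per gene was used, and any other start was not searched. The windows of Casp1 (gene at 10746338 to 10882295), Il1rn and Nlrp3 lie inside the listed genes and not at their outer ends. That of Il1a lies mostly inside its listed gene. It reaches past the gene end at 136990236, but the start it is set on is inside the gene. The windows of Il1b (chr3:137036532-137036831, minus strand) and Il1a (chr3:136989968-136990267, minus strand) are shown because these genes had the largest LPS responses of the 6. That of Casp1 (chr8:10872580-10872879, plus strand) is shown because its response was the smallest. Capitals mark matches to TATAAA on the given strand in Il1b and Il1a, and to a tandem repeat of GAAA with 2 bases in between, an interferon response type of element, read on the opposite strand, in Casp1.
Il1b: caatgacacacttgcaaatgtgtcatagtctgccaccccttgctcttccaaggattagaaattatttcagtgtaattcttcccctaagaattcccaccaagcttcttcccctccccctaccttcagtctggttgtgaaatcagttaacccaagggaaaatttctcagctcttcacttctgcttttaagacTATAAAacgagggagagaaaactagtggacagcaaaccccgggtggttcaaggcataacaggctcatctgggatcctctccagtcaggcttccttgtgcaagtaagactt
Il1a: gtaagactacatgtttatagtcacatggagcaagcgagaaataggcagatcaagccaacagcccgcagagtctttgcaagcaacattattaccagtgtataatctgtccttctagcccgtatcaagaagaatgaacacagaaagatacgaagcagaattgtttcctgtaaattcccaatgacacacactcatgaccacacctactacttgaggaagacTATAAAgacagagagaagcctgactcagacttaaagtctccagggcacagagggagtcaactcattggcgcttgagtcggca
Casp1: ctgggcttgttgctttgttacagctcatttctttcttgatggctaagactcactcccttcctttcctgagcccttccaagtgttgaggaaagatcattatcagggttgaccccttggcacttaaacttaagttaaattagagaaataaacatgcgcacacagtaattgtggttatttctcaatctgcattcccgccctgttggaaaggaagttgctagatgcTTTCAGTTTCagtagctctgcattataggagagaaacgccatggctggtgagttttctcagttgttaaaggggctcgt
TATAAA was found in the windows of Il1b and Il1a and in none of the other 4, against 9.08% of 27457 windows of the same length. The GAAA repeat, searched on both strands, was found in the Casp1 window alone among the 6, against 3.77% of all windows. The kappaB decamer, the DNA element read by NF-kB, was searched on both strands and had no match in these 6 windows, against 7.60% of all windows. The 2 Il1 matches and the Casp1 match do not overlap another of these motifs, and a match describes the letters only.

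Libraries held 12304916 to 17262383 estimated counts in total, and the 6 genes had between 312 and 244125 counts in a library. Levels are CPM, counts scaled to a fixed library total after TMM correction, unless TPM, a unit that also adjusts for transcript length, is named. A gene was called when its Benjamini-Hochberg adjusted p over all tested genes was under 0.05 in edgeR's quasi-likelihood test. Intervals are 95% intervals from the same fit. By library totals alone, the median of all tested genes in LPS against Control is -0.42 log2 units in place of -0.04 with TMM, and 0.18 in place of 0.03 in LPS+ApoA-I against LPS. Directions of small changes are therefore relative to the scaling.

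LPS raised all 6 genes with TMM scaling, and 5 of them with library totals or TPM, where Casp1 was not called. In this comparison 36.3% of all tested genes were called higher. The median log2 change of the 6 was 2.26, against -0.04 over all tested genes. The ligand genes Il1a and Il1b rose by far the most, Il1rn, Nlrp3 and Il18 rose between 3.49-fold and 5.34-fold, and Casp1 had 1.33-fold the Control level. The order of the fold changes was therefore ligands, antagonist, sensor, Il18 and protease.

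Il1b, which encodes IL-1β, had 10893, 11926, 10469.7 and 10658 CPM in the 4 LPS+ApoA-I libraries and 17820, 17464, 18027 and 15937 CPM in the LPS libraries. In ApoA-I libraries it had 360.1, 302, 273 and 221 CPM, and in Control libraries 164, 229.6, 170.0 and 241 CPM. All 8 libraries with LPS lay far above the 8 without, and every LPS+ApoA-I library lay below every LPS library. LPS raised Il1b 86.1-fold over Control (interval 69.1 to 107; edgeR adjusted p = 7.07e-20). By TPM it was the 4th most abundant of all listed genes in each LPS library, the 5th or 6th in LPS+ApoA-I libraries, between 248th and 391st in ApoA-I libraries and between 371st and 536th in Control libraries. It took 1.03% ± 0.0706 of all counts in LPS+ApoA-I libraries and 1.46% ± 0.0207 in LPS libraries (SD, n = 4 each).

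Il1a, which encodes IL-1α, a ligand that is active without cleavage by caspase-1, had 5087, 5480.2, 4665.5 and 4804.5 CPM in LPS+ApoA-I libraries and 8357, 8730.3, 8599 and 7934.5 CPM in LPS libraries. In ApoA-I libraries it had 109, 63.1, 48.1 and 40.9 CPM, against 35.6, 34.0, 30.1 and 33.1 CPM in Control libraries. The 4 Control values were tight, while the ApoA-I libraries were spread, with replicate 1 the highest. LPS raised Il1a 253-fold over Control (interval 180 to 356; edgeR adjusted p = 2.68e-18), a larger log2 change than 99.6% of tested genes.

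Il18, which encodes a cytokine of the same family that acts through its own receptor, had 178, 178, 176 and 169 CPM in LPS+ApoA-I libraries and 188, 203, 198 and 164 CPM in LPS libraries. In ApoA-I libraries it had 60.9, 66.0, 56.8 and 53.5 CPM, and in Control libraries 52.7, 51.6, 55.0 and 56.5 CPM. The LPS+ApoA-I values fell inside the range of the LPS values, and libraries with LPS lay above all libraries without. LPS raised Il18 3.49-fold over Control (interval 3.17 to 3.85; edgeR adjusted p = 1.80e-16).

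Il1rn, the antagonist gene, had 57.3, 58.0, 54.2 and 56.6 CPM in LPS+ApoA-I libraries and 115, 119, 117 and 108 CPM in LPS libraries. It had 24.9, 30.2, 23.6 and 21.5 CPM in ApoA-I libraries and 20.2, 24.6, 20.1 and 20.9 CPM in Control libraries. LPS+ApoA-I formed a separate level between LPS and the libraries without LPS, with a coefficient of variation of 2.90% among its 4 libraries. LPS raised Il1rn 5.34-fold over Control (interval 4.74 to 6.02; edgeR adjusted p = 3.47e-17).

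Nlrp3, the sensor gene, showed the same kind of intermediate level. It had 504, 455, 463 and 460.5 CPM in LPS+ApoA-I libraries and 913, 943, 862 and 844 CPM in LPS libraries. It had 223, 227, 214 and 208 CPM in ApoA-I libraries and 209.6, 204, 205 and 213 CPM in Control libraries. LPS raised it 4.28-fold over Control (interval 3.99 to 4.60; edgeR adjusted p = 5.94e-20).

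Casp1, the protease gene, had 60.8, 69.3, 65.7 and 66.6 CPM in LPS+ApoA-I libraries and 73.3, 66.5, 71.0 and 54.3 CPM in LPS libraries. It had 49.0, 55.4, 49.3 and 44.7 CPM in ApoA-I libraries and 53.9, 44.6, 48.5 and 52.8 CPM in Control libraries. LPS replicate 4, the lowest LPS library, lay only just above the highest Control library. The change in LPS against Control was 0.41 log2 units (SE 0.09, edgeR adjusted p = 0.000188), and this call rested on the scaling. With library totals alone the change was 0.02 (adjusted p = 0.809), and on log2(TPM + 1) it was -0.02 (limma adjusted p = 0.822). Relative to the median of all tested genes it was 0.44 both with TMM and with library totals.

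**Figure D1:**
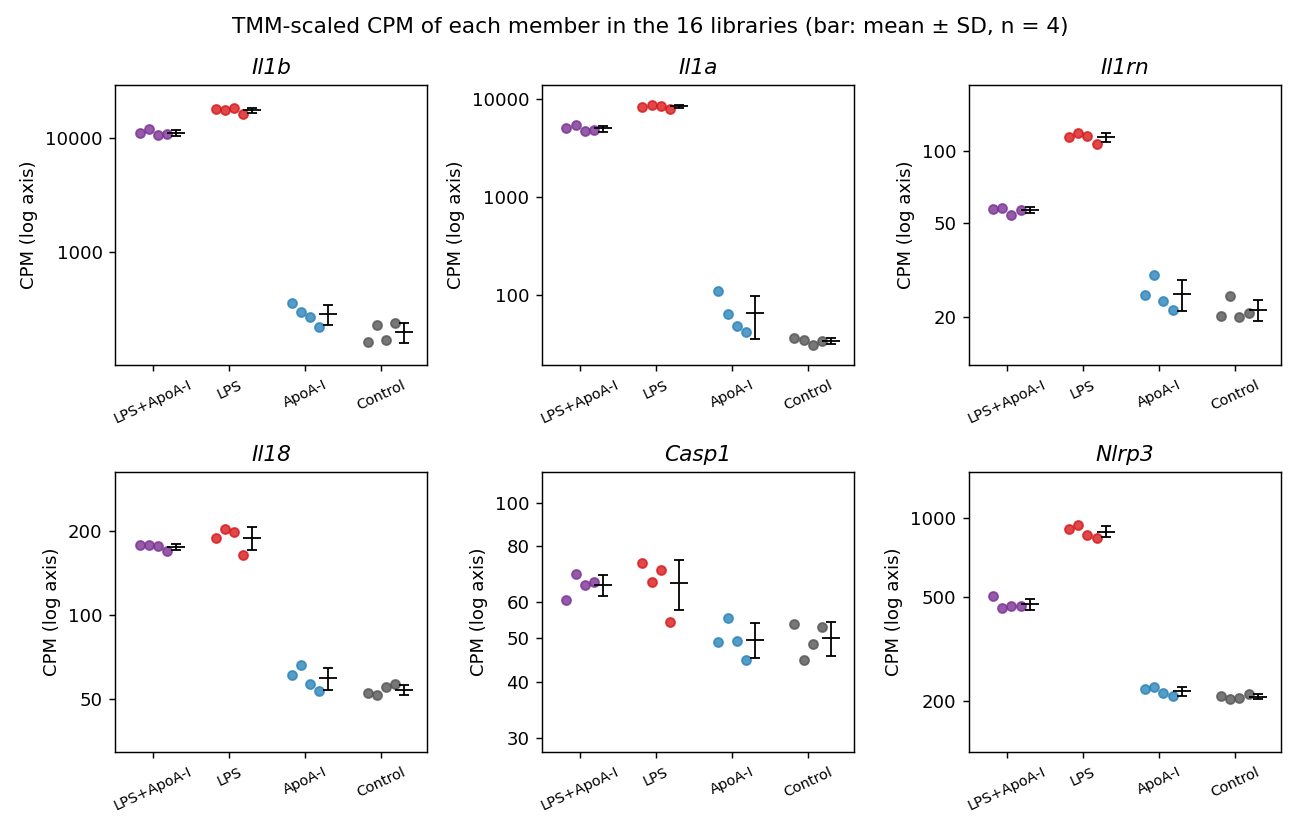
TMM-scaled CPM of the 6 genes in each of the 16 libraries on log axes; points are libraries and bars are mean ± SD (n = 4). Il1b, Il1a, Il1rn and Nlrp3 have LPS+ApoA-I libraries below all LPS libraries, as have 23.8% of all tested genes, while Il18 and Casp1 do not.

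In cells given LPS, ApoA-I lowered 4 of the 6 genes, in a comparison where 24.9% of all tested genes were called lower and 26.4% higher. Their median log2 change was -0.70 over the 6 genes, against 0.03 over all tested genes. The antagonist and sensor genes fell to similar fractions of the LPS level and the IL-1 ligand genes to somewhat larger ones, with overlapping intervals. Il18 and Casp1 were not called.

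Il1rn averaged 56.5 ± 1.64 CPM in LPS+ApoA-I cells and 115 ± 4.82 CPM in LPS cells (SD, n = 4 each), a ratio of 0.494 (interval 0.442 to 0.551; edgeR adjusted p = 2.59e-10). Nlrp3 averaged 471 ± 22.4 CPM in LPS+ApoA-I and 891 ± 45.5 CPM in LPS libraries (SD, n = 4 each), a ratio of 0.528 (interval 0.493 to 0.566; edgeR adjusted p = 4.69e-13). For both genes the gap between the groups was many times the SD within either. Of the 11902 tested genes, 5.36% had a lower log2 change than Il1rn and 6.30% a lower one than Nlrp3.

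Il1a averaged 5009 ± 360 CPM in LPS+ApoA-I and 8405 ± 349.8 CPM in LPS cells (SD, n = 4 each), a ratio of 0.596 (interval 0.464 to 0.765; edgeR adjusted p = 0.00102). Il1b averaged 10987 ± 649.7 CPM in LPS+ApoA-I and 17312 ± 946 CPM in LPS libraries (SD, n = 4 each), a ratio of 0.635 (interval 0.533 to 0.756; edgeR adjusted p = 0.000101). These 4 lowered genes each had all 4 LPS+ApoA-I libraries below all 4 LPS libraries, as had 23.8% of all tested genes.

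Il18 averaged 175 ± 4.11 CPM in LPS+ApoA-I and 188 ± 17.4 CPM in LPS libraries (SD, n = 4 each). The ratio was 0.931 (interval 0.849 to 1.02; edgeR adjusted p = 0.186), so a decrease to below 0.849 of the LPS level lies outside the interval. Without LPS replicate 4, the lowest library of its group, the change was -0.16 log2 units and was called (edgeR adjusted p = 0.0286). Casp1 averaged 65.6 ± 3.56 CPM in LPS+ApoA-I and 66.3 ± 8.46 CPM in LPS libraries (SD, n = 4 each), with a ratio of 0.991 (interval 0.877 to 1.12; edgeR adjusted p = 0.913). By library totals alone the changes of Il18 and Casp1 were 0.05 and 0.14 log2 units, neither of them called, so no direction is given for these genes.

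**Figure D2:**
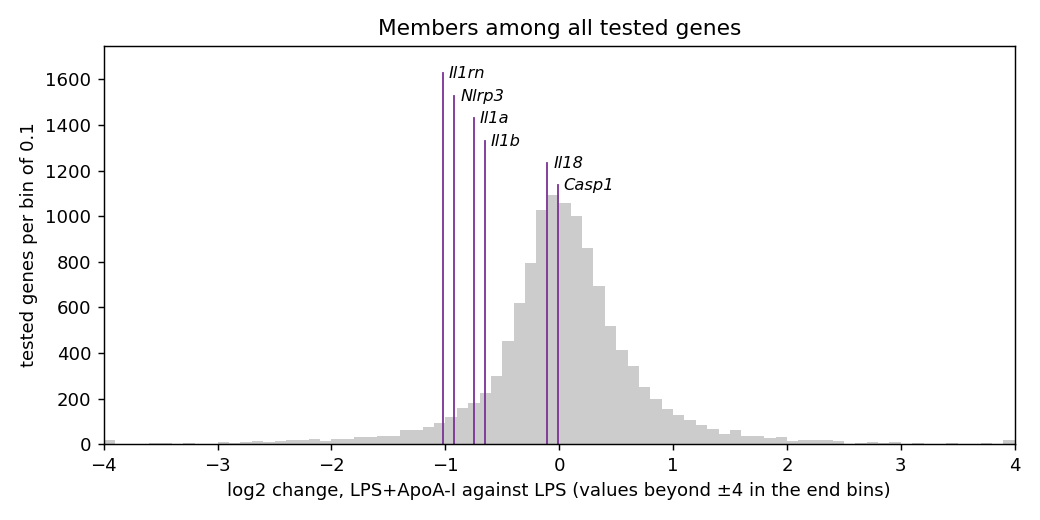
Histogram of the log2 change in LPS+ApoA-I against LPS over the 11902 tested genes, in bins of 0.1, with a line for each of the 6 genes. Il1rn, Nlrp3, Il1a and Il1b lie on the lower flank, between -1.02 and -0.66, and Il18 and Casp1 lie near the centre.

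LPS+ApoA-I cells still had all 6 genes above the Control level with TMM scaling, 5 of them with library totals or TPM, where 34.4% of tested genes were called higher. Against Control, Il1a was 151-fold higher (interval 108 to 209.8; edgeR adjusted p = 2.52e-17) and Il1b 54.7-fold higher (interval 44.1 to 67.7; edgeR adjusted p = 8.25e-19). Il18 was 3.25-fold, Il1rn 2.64-fold, Nlrp3 2.26-fold and Casp1 1.32-fold the Control level, all called. The Casp1 change, 0.40 log2 units, was 0.17 with library totals alone (edgeR adjusted p = 0.0617).

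With ApoA-I present, the response to LPS was read from LPS+ApoA-I against ApoA-I. Its group means share no library with those of LPS against Control. The same fit of all 16 libraries gave both, with a shared scaling and estimate of spread. All 6 genes were called higher with TMM scaling (5 with library totals or TPM, all but Casp1), against 34.5% of all tested genes. The log2 changes, with those of LPS against Control for comparison, were 6.26 and 7.98 for Il1a, 5.25 and 6.43 for Il1b, and 1.56 and 1.80 for Il18. For Il1rn they were 1.18 and 2.42, for Nlrp3 1.11 and 2.10, and for Casp1 0.41 in both. On the log2 scale Il1rn kept 0.486 and Nlrp3 0.529 of the response without ApoA-I, Il1a 0.784, Il1b 0.817 and Il18 0.868. The order differed as a ratio of fold changes. It was 0.303 for Il1a, 0.423 for Il1rn, 0.441 for Il1b, 0.504 for Nlrp3, 0.848 for Il18 and 0.998 for Casp1. Either measure includes the difference between ApoA-I and Control libraries without LPS. Casp1 again lost its call with library totals alone (0.12 log2 units, edgeR adjusted p = 0.181).

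In cells without LPS, ApoA-I raised Il1a and Il1b, 2 of the 6 genes, where 2.50% of all tested genes were called higher. The median of the 6 was 0.18 log2 units, against 0.00 over all tested genes. Il1a averaged 65.3 ± 30.7 CPM in ApoA-I and 33.2 ± 2.32 CPM in Control libraries (SD, n = 4 each), 1.97-fold higher (interval 1.51 to 2.57; edgeR adjusted p = 0.00410). Il1b averaged 289 ± 58.1 CPM in ApoA-I and 201 ± 39.7 CPM in Control libraries (SD, n = 4 each), 1.44-fold higher (interval 1.21 to 1.71; edgeR adjusted p = 0.0172). All 4 ApoA-I libraries lay above all Control libraries for Il1a, as for 4.28% of all tested genes, and 3 of 4 did for Il1b.

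Both calls depended on the fit, and that of Il1b also on single libraries. ApoA-I replicate 1 was the highest for both genes. Without it Il1a averaged 50.7 ± 11.3 CPM in ApoA-I libraries (SD, n = 3) and was 0.61 log2 units above Control, still called. Il1b was then 0.40 log2 units above Control and not called (edgeR adjusted p = 0.0854). The Il1b call was also lost without Control replicate 1 (0.44, edgeR adjusted p = 0.0670) and without Control replicate 3 (0.45, edgeR adjusted p = 0.0705). Fitted on the 8 libraries of these groups alone, neither was called (edgeR adjusted p = 0.0589 for Il1a and 0.0950 for Il1b), although the changes, 0.98 and 0.52 log2 units, were nearly the same. A set of 8 abundant genes that vary together took 1.61% to 9.43% of counts in ApoA-I libraries and 4.05% to 11.9% in Control libraries. With their share as a covariate Il1a and Il1b were still called, at 0.96 and 0.54 log2 units.

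The other 4 genes were not called in ApoA-I against Control. Il1rn averaged 25.1 ± 3.69 CPM in ApoA-I and 21.5 ± 2.13 CPM in Control libraries (SD, n = 4 each), a ratio of 1.17 (interval 1.03 to 1.32; edgeR adjusted p = 0.150, unadjusted p = 0.0174). The ratio for Il18 was 1.10 (interval 0.995 to 1.21; edgeR adjusted p = 0.295), and Il18 was called at 0.25 log2 units once the share of the abundant genes was a covariate (edgeR adjusted p = 0.0312). For Nlrp3 the ratio was 1.05 (interval 0.979 to 1.12; edgeR adjusted p = 0.481), and for Casp1 it was 0.993 (interval 0.878 to 1.12; edgeR adjusted p = 0.969). A rise of Nlrp3 in resting cells above 1.12-fold lies outside its interval.

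**Figure D3:**
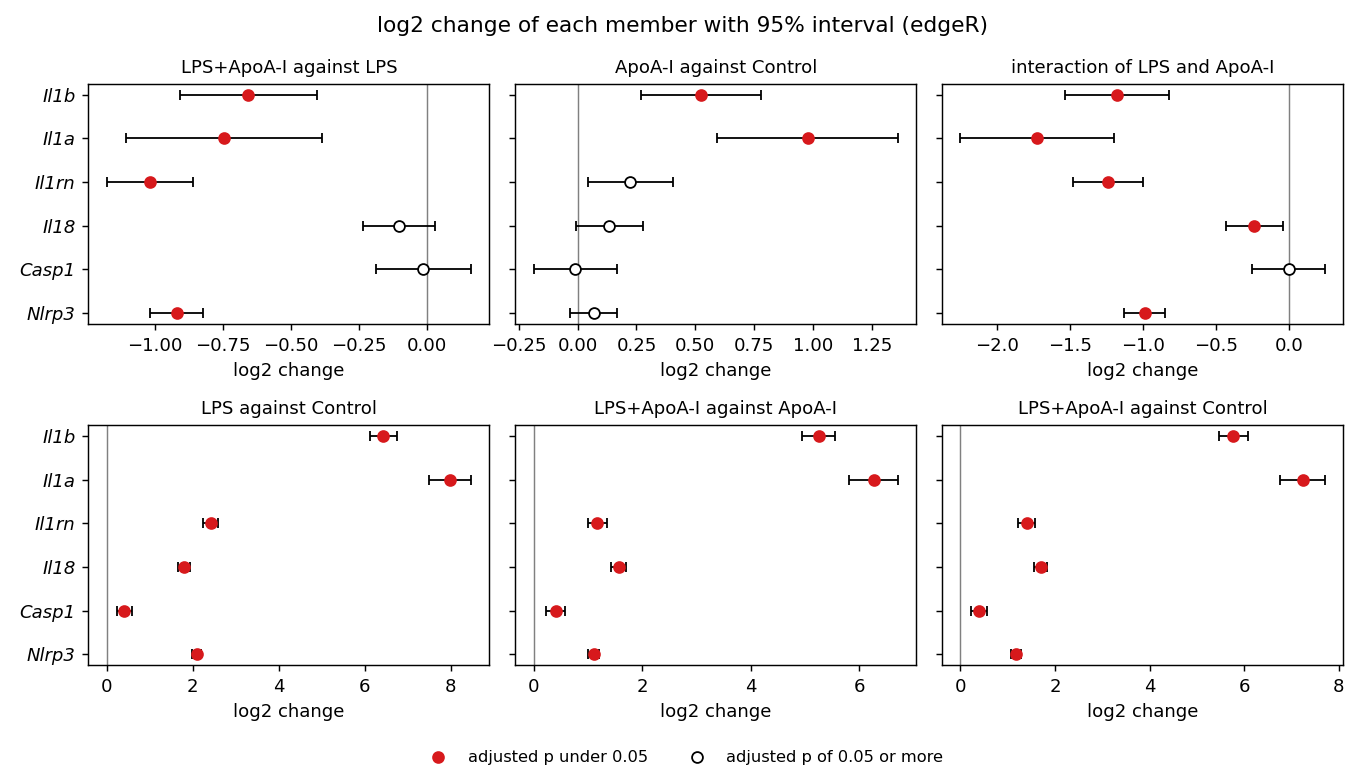
log2 change of each gene with its 95% interval in 6 comparisons, from edgeR; filled points passed an adjusted p of 0.05. ApoA-I has negative values with LPS and positive values without it for the ligand genes Il1b and Il1a, called in both. Il1rn and Nlrp3 have the same signs but were called with LPS only. The horizontal scales differ between panels.

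The interaction sets the ApoA-I effect under LPS against the ApoA-I effect in resting cells. It was negative and called for 5 of the 6 genes, where 20.2% of tested genes had a called negative value. Il1a had the largest value, -1.72 log2 units (SE 0.25, edgeR adjusted p = 1.15e-05). Without ApoA-I replicate 1 its value shrank to -1.36 and was still called. Il1rn had -1.24 (SE 0.12, edgeR adjusted p = 1.87e-08), Il1b -1.18 (SE 0.17, edgeR adjusted p = 1.04e-05) and Nlrp3 -0.99 (SE 0.07, edgeR adjusted p = 1.59e-10). For Il1a and Il1b the effect of ApoA-I was positive without LPS and negative with LPS. For Il1rn and Nlrp3 it was called with LPS only, and the interaction is the test of that difference. Il18 was near the threshold at -0.24 (SE 0.09, edgeR adjusted p = 0.0466) and was not called under 16 of 24 alternatives, with values from -0.39 to -0.14 and adjusted p from 0.000705 to 0.208. Casp1 had 0.00 (interval -0.25 to 0.25; edgeR adjusted p = 0.993).

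Ligand and antagonist transcripts were set against each other within each library. The summed CPM of Il1a and Il1b per CPM of Il1rn was 279, 300.4, 279 and 273 in LPS+ApoA-I libraries and 228, 220.3, 228.5 and 222 in LPS libraries. It was 18.8, 12.1, 13.6 and 12.2 in ApoA-I libraries and 9.85, 10.7, 9.95 and 13.1 in Control libraries. The 4 LPS+ApoA-I libraries lay above all LPS libraries, while the ApoA-I and Control libraries overlapped. As the ratio was made from genes chosen with earlier results known, no test is given for it.

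Per length, the ratio of ligand to antagonist was 369.8, 400.4, 377 and 239 in LPS+ApoA-I libraries 1 to 4, and 304, 290.3, 302 and 293 in LPS libraries. The first 3 again lay above all LPS libraries, but LPS+ApoA-I replicate 4 lay below them. In that library Il1rn had 72.2 TPM, against 45.7 to 47.7 TPM in the other LPS+ApoA-I libraries, although its CPM of 56.6 was inside their range. The deposited TPM of Il1rn was 1.36 times its unscaled CPM there and 0.860 to 0.966 times in the other 15 libraries. With it, Il1rn averaged 53.3 ± 12.6 TPM in LPS+ApoA-I libraries (SD, n = 4), and without it 47.0 ± 1.10 (SD, n = 3), against 86.9 ± 1.88 TPM in LPS libraries (SD, n = 4). On log2(TPM + 1), Il1rn in LPS+ApoA-I against LPS was called as well.

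**Figure D4:**
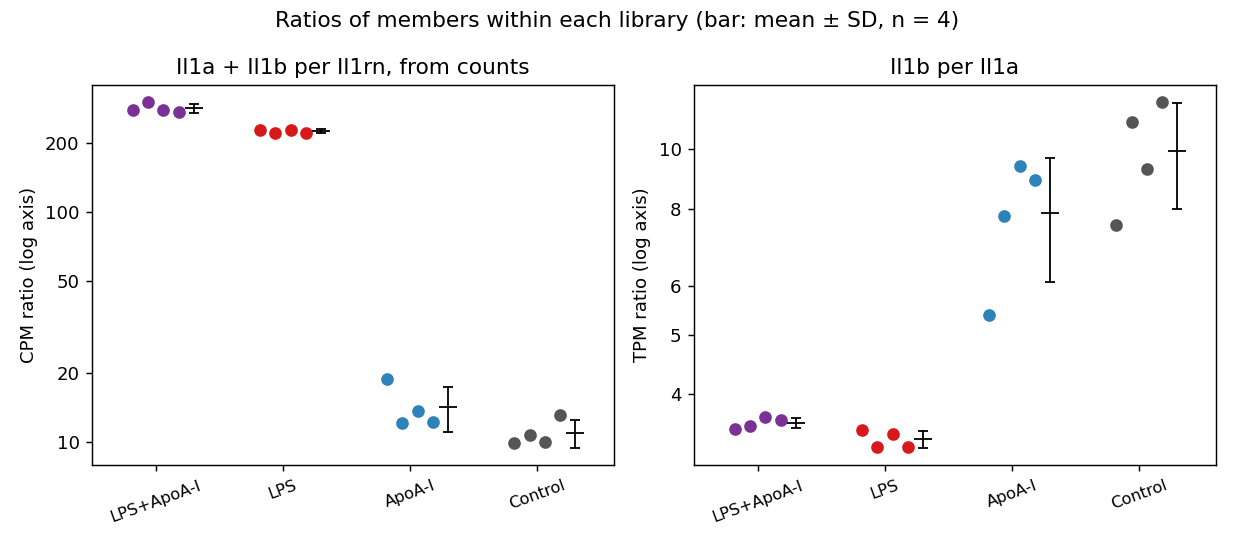
Ratio of summed Il1a and Il1b CPM to Il1rn CPM (left) and of Il1b TPM to Il1a TPM (right) in each library, on log axes; bars are mean ± SD (n = 4). The 4 LPS+ApoA-I libraries lie above all LPS libraries on the left, and the 8 libraries with LPS lie below the 8 without on the right.

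Between the ligands, Il1b had 3.52 to 3.67 TPM for each TPM of Il1a in LPS+ApoA-I libraries and 3.29 to 3.50 in LPS libraries. The ratio was 5.38 to 9.38 in ApoA-I libraries and 7.54 to 11.9 in Control libraries. Il1b thus stayed the more abundant ligand transcript in every library, and the share of Il1a was greater with LPS. The ratio of Nlrp3 to Casp1 was 2.10 ± 0.205 in LPS+ApoA-I and 3.93 ± 0.491 in LPS libraries, and 1.28 ± 0.0752 in ApoA-I and 1.22 ± 0.0904 in Control libraries, all on TPM (SD, n = 4 each).

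By TPM, Il1b was the most abundant of the 6 transcripts in every group. In LPS+ApoA-I libraries it averaged 13907 ± 627 TPM, followed by Il1a at 3871 ± 222, Il18 at 326 ± 4.63, Nlrp3 at 176 ± 8.14, Casp1 at 84.2 ± 4.19 and Il1rn at 53.3 ± 12.6 TPM (SD, n = 4 each). In LPS libraries it averaged 19940 ± 249.9 TPM, followed by Il1a at 5897 ± 133, Il18 at 332 ± 26.8, Nlrp3 at 301 ± 14.0, Il1rn at 86.9 ± 1.88 and Casp1 at 77.4 ± 7.24 TPM (SD, n = 4 each). Il18 and Nlrp3 nearly met there, with 313.9 TPM in the lowest library for Il18 and 313.5 TPM in the highest for Nlrp3.

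Without LPS the order changed below Il1b. In ApoA-I libraries Il1b averaged 473 ± 108 TPM, followed by Il18 at 142 ± 5.67, Nlrp3 at 105 ± 6.68, Casp1 at 82.0 ± 5.65, Il1a at 65.6 ± 33.8 and Il1rn at 26.8 ± 3.16 TPM (SD, n = 4 each), and Il1a overlapped both Nlrp3 and Casp1. In Control libraries the order was Il1b at 312 ± 66.5, Il18 at 126 ± 4.58, Nlrp3 at 95.2 ± 3.89, Casp1 at 78.4 ± 6.43, Il1a at 31.4 ± 3.22 and Il1rn at 21.9 ± 3.11 TPM (SD, n = 4 each), with no overlap between neighbours. By group mean Il1a was thus 5th of the 6 in both groups without LPS and 2nd in both with LPS.

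Libraries varied around their group means in a partly shared way. Over the 16 libraries, deviations of log2 CPM correlated most between Il18 and Casp1 (r = 0.722) and between Il1b and Il1a (r = 0.692), and least between Il1a and Casp1 (r = 0.238). These are descriptions, since each pair shares the scaling of its library. Across the 16 libraries, the 2 identifiers most like Il1b, of 9345 compared, were ENSRNOG00000011205 (Pearson's r = 0.999, Spearman's rho = 0.965) and ENSRNOG00000049361 (r = 0.998, rho = 0.947). By Pearson's r, Il1a ranked 4th in this likeness, Il18 39th, Il1rn 910th, Nlrp3 922nd and Casp1 2026th. Il1rn had a rho of 0.971, above those of both identifiers, so the order depends on the measure. The likeness mostly follows the split between libraries with and without LPS. ENSRNOG00000011205 had 12388 ± 983 CPM in LPS+ApoA-I and 19619 ± 1227 CPM in LPS libraries, and 525 ± 133 CPM in ApoA-I and 418 ± 79.0 CPM in Control libraries (SD, n = 4 each).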

How the data were processed

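Transcripts of 16 microglia libraries were measured after column extraction of RNA. The estimated counts per gene, of the kind RSEM gives, and the TPM values were made and deposited by the authors. Trimming, alignment and quantification tools in the submitters' processing notes are cutadapt (1.8.1), STAR (2.7.10b) and RSEM (1.3.1). The same notes name mm10, a mouse build, while identifiers have the Ensembl rat prefix. No source used here gives the annotation, and an unsuitable one would affect counts of single genes. By a tolerance of 0.005, counts of the 6 genes were whole in every library and 3.24% of all count values were not; these were rounded.

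Genes were kept by filterByExpr with a minimum count of 10. One edgeR (4.0.16, R 4.3.3) fit with TMM scaling and a mean per group held all 16 libraries and gave 6 quasi-likelihood comparisons with 12 residual degrees of freedom. An SE is the absolute log2 change over the square root of F. Alternatives were DESeq2 1.42.0, other scalings, no filter, limma 3.58.1 on log2(TPM + 1) or log2(TPM + 0.1), the groups compared alone, a replicate block, the share of 8 abundant genes as a covariate, and each library left out. The tests were tried on simulated data with few changed genes, unlike these data, so that trial does not bear on the scaling. In 24 replicate pairs the chi-square of counts was 3.10 to 92.3 per degree of freedom, above counting noise. All libraries were counted as replicates, though this does not show that they came from separate animals or cultures. Likeness to Il1b used log2 CPM (prior count 2) of genes averaging 5 CPM or more, and by the naming rule the 2 most like identifiers are printed. Lists of pathway genes and cell type markers, set by symbol, could not be applied to identifiers. The 8 abundant genes average 1000 CPM or more and correlate above 0.95, in deviations from group means, with the most abundant gene. Members and lists were chosen with earlier results of these data known. Promoter windows are RefSeq's, assembly GRCr8.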

Additional observations from a re-analysis of the deposited data

Results flagged for a closer look

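In 5 of the 6 genes edgeR's interaction test called a different ApoA-I effect under LPS than in resting cells, all with a negative value, as in 20.2% of all tested genes. The difference was -1.72 log2 units for Il1a, -1.24 for Il1rn, -1.18 for Il1b, -0.99 for Nlrp3 and -0.24 for Il18. The Il18 value (adjusted p = 0.0466) was not called under 16 of 24 alternatives.

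Among 48 checks of the highest or lowest library of a group, for 6 genes in 4 groups and 2 units, 4 values stood apart, and chance alone marks about 1 in 20 such groups. All 4 values were from LPS+ApoA-I libraries. Nlrp3 had 504 CPM in replicate 1, above the other 3. By TPM, Il1b had 14836 in replicate 2 and Il1rn had 72.2 in replicate 4, above the others, and Casp1 had 78.0 in replicate 1, below the others. The cause was not tested.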

How the results depend on the processing

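Il1b, Il1a, Il1rn and Nlrp3 kept their direction and call in LPS against Control, LPS+ApoA-I against LPS, LPS+ApoA-I against ApoA-I, LPS+ApoA-I against Control and the interaction under every alternative tried; the changes in LPS+ApoA-I against LPS ranged from -0.70 to -0.50 for Il1b, -0.79 to -0.60 for Il1a, -1.05 to -0.72 for Il1rn and -0.95 to -0.77 for Nlrp3. In ApoA-I against Control, 2 genes were called; 0 were called by edgeR with only the groups compared (2 at an unadjusted p under 0.05, and 2 called by DESeq2 on all groups), and 1 or 2 with one library left out. Il18 in LPS+ApoA-I against LPS was called with the covariate (-0.13, adjusted p = 0.0270). The lowest count of a member in a library was 312.

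Casp1 changed sign in LPS against Control on log2(TPM + 1) and log2(TPM + 0.1) (-0.0194 and -0.0196). In ApoA-I against Control it did so with library totals (0.0472), the same TPM scales (0.0654 and 0.0662) and the covariate (0.134). In LPS+ApoA-I against LPS it did so with library totals (0.144), upper quartile scaling (0.0478), no filter (0.0001) and TPM (0.124 and 0.125), and Il18 did with library totals (0.0508). The Casp1 interaction was 0.0966 with library totals, 0.0783 with upper quartile scaling, 0.0112 without a filter, 0.0581 and 0.0588 on TPM and 0.0048 with the replicate block. With one library left out, Casp1 ranged from -0.0669 to 0.0366 in ApoA-I against Control, -0.0975 to 0.0383 in LPS+ApoA-I against LPS and -0.0873 to 0.0548 in the interaction. None of these reversed values was called.

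No pairing by replicate number was seen. Deviations of same-numbered libraries correlated from -0.18 to 0.18 (median 0.00), and those of differently numbered libraries from -0.29 to 0.20. Of 16 libraries, 5 correlated best with their own number, and the share by chance was not worked out. Such correlations cannot show whether same-numbered libraries shared a culture or animal. The replicate block changed no call of the 6 genes. Over all genes, ApoA-I against Control had 508 calls, against 94 with only the groups compared, 224 with the covariate, 310 and 238 on TPM, 806 with DESeq2 and 186 to 775 with one library left out.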
